A study of Rattus norvegicus with 14 samples.

Results

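Gene expression in phenylephrine-stimulated heart muscle cells kept under BET inhibition was compared between a late and an early time: 3 arrays at 48 h and 3 arrays at 6 h, 6 of the 14 arrays of the series. The arrays were assigned to the groups by their titles alone, and every gene on the array was followed. The cells were neonatal rat ventricular myocytes from 2-day-old Sprague-Dawley pups, plated for 1.5 h to let non-myocytes attach and be removed, and then held without serum. The groups were JQ1 with phenylephrine (PE, 100 µM) at 48 h (n = 3) and at 6 h (n = 3), the vehicle DMSO plus PE, also at 48 h (n = 3) and 6 h (n = 2), and DMSO alone, sampled at 90 min (n = 3). All groups received JQ1 or its vehicle DMSO; the dose of JQ1 is not stated in the labels. The treatment protocol puts JQ1 or DMSO 6 h ahead of PE, while the series' design text puts PE first, so the order is not settled. Time in culture, time with PE and time with JQ1 differ together between 48 h and 6 h and cannot be told apart. Values given below as without PE are those of DMSO alone at 90 min, which matches neither 6 h nor 48 h. The labels do not tell whether replicate arrays were hybridised with RNA of different cultures, and the p-values therefore rest on an array-to-array spread that could be technical.

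BET proteins bind acetylated histones through bromodomains and help RNA polymerase II to transcribe the genes nearby. JQ1 occupies the bromodomain pocket and takes BET proteins off chromatin. PE activates alpha1-adrenergic receptors, and cultured myocytes answer with immediate early genes within hours and with growth, new sarcomeres and fetal gene expression over days. The comparison asks how the transcriptome of stimulated cells moves over that period while BET proteins are inhibited, and the same interval with DMSO shows how it moves when they are not.

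The values are deposited log2 expression values per probe set, read here as 1 probe set per gene, the brightest over all arrays, for 13184 genes. Array medians lay between 7.28 and 7.31 at 48 h with JQ1 and between 7.30 and 7.32 at 6 h with JQ1, and between 7.36 and 7.43 on the other arrays. Within groups, arrays correlated with each other at 0.9976 or above (Pearson r over probe sets), and the 3' minus 5' log2 difference of the Gapdh control probe sets, a check on degraded RNA, ran from -0.10 to -0.03 over the series. That of the hexokinase control lay between 1.29 and 1.55 at 48 h with JQ1, between 1.10 and 1.31 at 6 h with JQ1, and between 1.15 and 1.46 on the other arrays; its part in the results was not tested. A mean below log2 6.23, the 30th percentile of gene means, is called dim here, and the size of a change into or out of a dim group is uncertain. Changes are log2 fold changes ± standard error (SE) from 1 limma fit of all 14 arrays, and a gene is called when its p, adjusted by the Benjamini-Hochberg method over all 13184 genes, is below 0.05. All adjusted p-values below come from that limma fit.

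Under JQ1 the deposited values moved in both directions in nearly equal numbers of genes. Their normalization is not given and could itself even out rises and falls, and a change in total RNA was not tested. At 48 h, 3584 genes were raised (27.2% of those tested) and 3485 lowered (26.4%), together 7069 (53.6%), against 6 h. Most changes were small: 2860 raised and 2508 lowered genes stayed under 1.5-fold. Changes of at least 2-fold leaned downward, with 158 genes raised (1.2%) and 362 lowered (2.75%). The median absolute log2 fold change over all genes was 0.18 with JQ1 and 0.12 with DMSO, while the median signed change was near 0 in both (0.00 with JQ1, -0.01 with DMSO). The 48 h and 6 h arrays with JQ1 did not overlap for 7884 genes (59.8%).

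The same interval with DMSO raised 2144 genes (16.3%) and lowered 2421 (18.4%). The changes over time with JQ1 and with DMSO share no array. Genes raised in both numbered 1260, which is 35.2% of those raised with JQ1 and 58.8% of those raised with DMSO. Genes lowered in both numbered 1480, which is 42.5% of those lowered with JQ1 and 61.1% of those lowered with DMSO. Opposite calls were rarer: 345 genes were raised with JQ1 and lowered with DMSO, and 348 were lowered with JQ1 and raised with DMSO. When the difference of the 2 changes was tested, JQ1 minus DMSO, 2695 genes were higher (20.4%) and 2416 lower (18.3%). Across genes, which are not independent replicates, the changes with JQ1 and with DMSO had a Pearson r of 0.39 and a Spearman rho of 0.39 (n = 13184 genes).

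**Figure D1:**
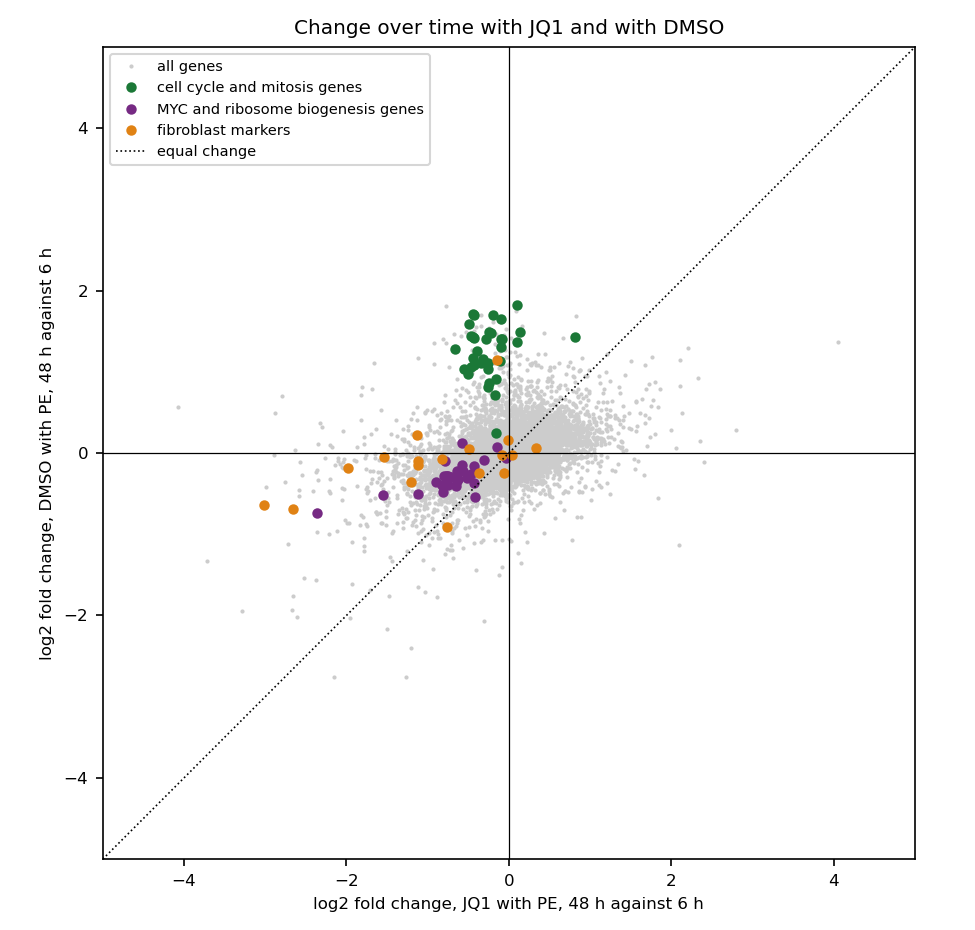
Log2 fold change at 48 h against 6 h for each of 13184 genes, with JQ1 and PE on the horizontal axis and with DMSO and PE on the vertical axis; grey dots are all genes and coloured dots are members of 3 gene lists. Cell cycle and mitosis genes stand high on the vertical axis and mostly left of 0 on the horizontal axis, fibroblast markers spread to the left, and ribosome biogenesis genes lie below and left of 0.

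The large rises and the large falls sat differently among the 14 arrays. Of the 158 genes raised at least 2-fold, 129 had their 6 h JQ1 arrays below all 11 other arrays, while 45 had their 48 h JQ1 arrays above all others. Of the 362 genes lowered at least 2-fold, 258 had their 48 h JQ1 arrays below all other arrays, and 123 had their 6 h JQ1 arrays above all others. So most large rises started at a level found in no other group, and most large falls ended at one. Over all 13184 genes, the 6 h JQ1 arrays were the lowest for 1725 and the highest for 1567, and the 48 h JQ1 arrays were the lowest for 1560 and the highest for 1606. These are descriptions with no test, since the fold that chose the genes used the same arrays. Of the 158 rises, the difference from DMSO was higher for 153, and of the 362 falls it was lower for 334 and higher for 8. Over all genes the difference was higher for 20.4% and lower for 18.3%. Because the difference contains the JQ1 change that chose these genes, its direction was largely set by the choice.

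The 12 largest rises were in Lrrc10, Ppargc1a, Stc1, Pik3ip1, Cavin2, Asph, Rimbp2, Plppr5, Pdk4, G0s2, Sphkap and Hltf, a set that the rule restricts to genes whose 48 h and 6 h arrays do not overlap. Lrrc10, which encodes a leucine-rich repeat protein of the heart muscle cell, had log2 values of 10.45, 10.69 and 10.69 at 48 h with JQ1, against 6.52, 6.61 and 6.54 at 6 h with JQ1. That was a 16.6-fold rise (4.05 ± 0.06, adjusted p = 1.5e-12). The 6 h level was far below every other group: Lrrc10 averaged 10.29 with DMSO and PE at 48 h, 8.92 with DMSO and PE at 6 h and 11.68 without PE, so at 48 h with JQ1 it stood close to its DMSO counterpart.

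Ppargc1a, the coactivator PGC-1alpha that drives mitochondrial gene programmes, had log2 values of 8.15, 7.48 and 8.55 at 48 h, against 5.41, 4.84 and 5.54 at 6 h. The rise was 6.94-fold (2.80 ± 0.24), with the widest spread among the named genes that rose most and from a dim level, and the groups did not overlap. Stc1, the secreted hormone stanniocalcin 1, averaged 9.85 at 48 h and 7.45 at 6 h, a 5.29-fold rise (2.40 ± 0.06). With DMSO, Stc1 was at 10.45 at 48 h and 10.56 at 6 h, not called. Pik3ip1, an inhibitor of phosphoinositide 3-kinase, averaged 9.15 at 48 h and 6.79 at 6 h (2.36 ± 0.07), and Cavin2, a coat protein of caveolae, averaged 11.63 at 48 h and 9.31 at 6 h (2.33 ± 0.07).

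G0s2, an inhibitor of the triglyceride lipase ATGL, was raised with JQ1 and lowered with DMSO. It had 11.61, 11.69 and 11.71 at 48 h with JQ1, against 9.52, 9.67 and 9.55 at 6 h with JQ1 (2.09 ± 0.06), while with DMSO it averaged 10.73 at 48 h and 11.87 at 6 h (-1.14 ± 0.07). The difference of 3.22 ± 0.09 was the highest of any gene (adjusted p = 7.1e-10). Tmem196, a membrane protein gene, followed the same order: it rose with JQ1 (1.84 ± 0.10) and fell with DMSO (-0.56). Pdk4, the kinase that shuts pyruvate out of the mitochondrial oxidation route, rose in both settings, and its 48 h arrays with JQ1, at 9.54, 9.58 and 9.57, were above all others of the series. Its 6 h arrays with JQ1 had 7.36, 7.56 and 7.45, about the level of DMSO with PE at 6 h (mean 7.41).

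**Figure D2:**
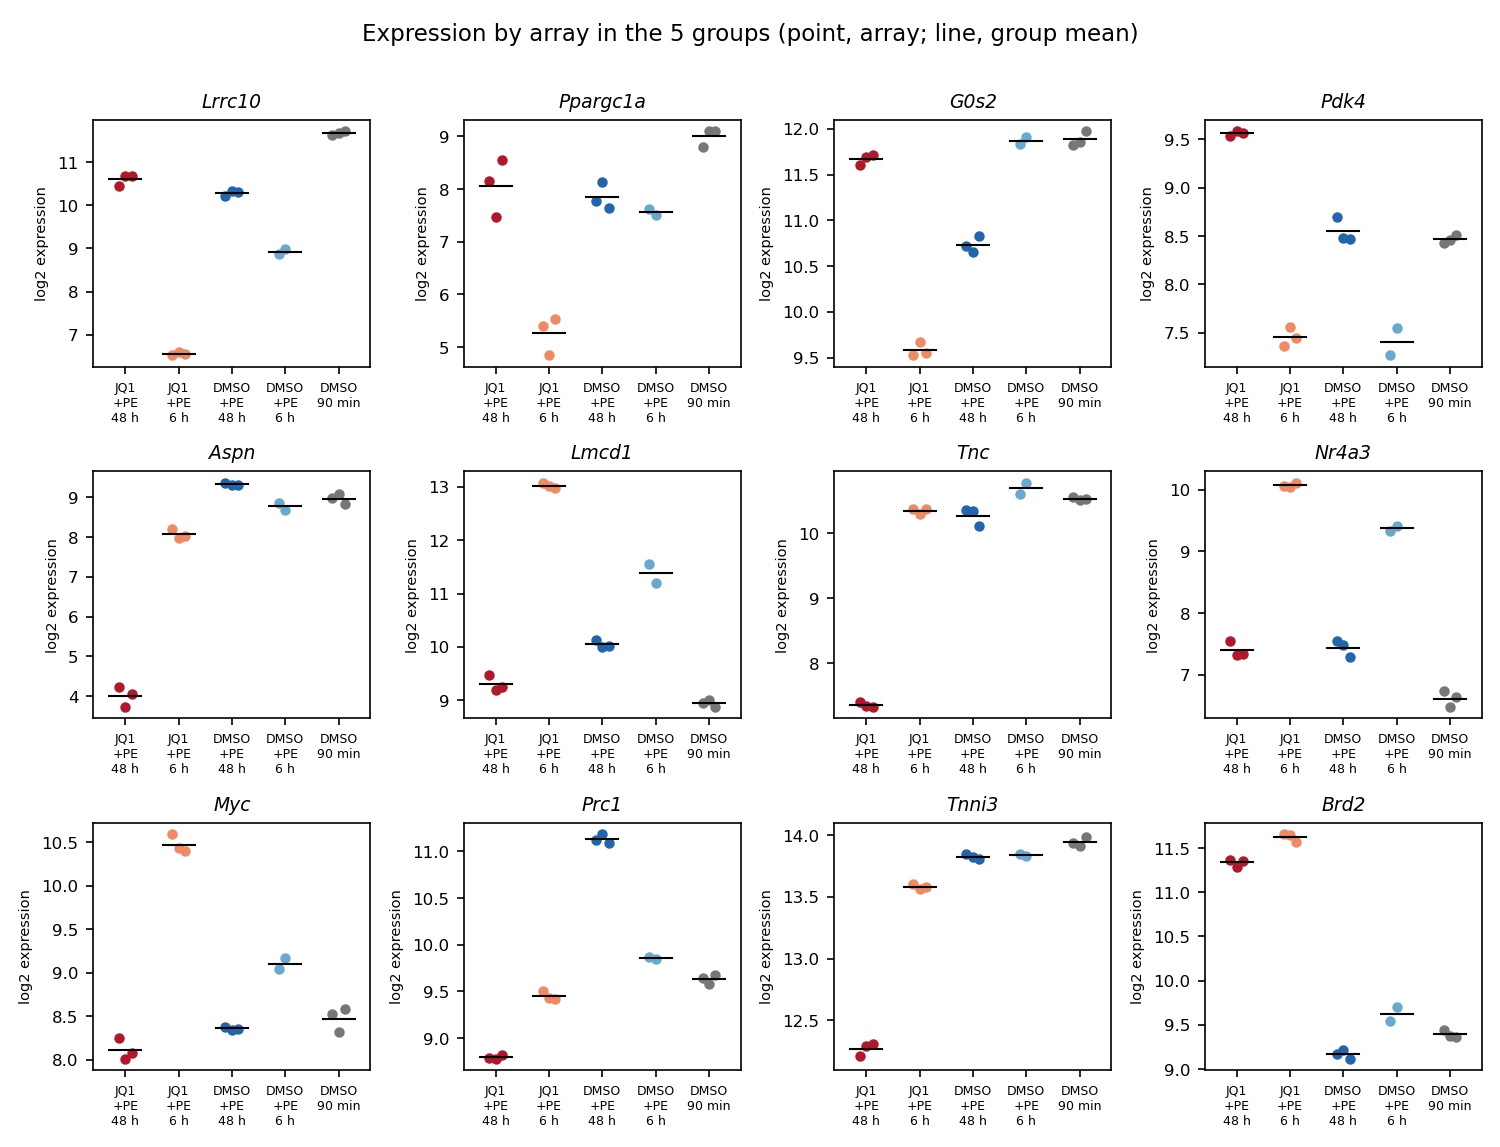
Log2 expression of 12 genes on each of the 14 arrays; points are arrays, lines are group means, and groups run from JQ1 with PE at 48 h on the left to DMSO without PE at 90 min on the right. Lrrc10, Ppargc1a and G0s2 are lowest at 6 h with JQ1, Aspn, Tnc, Prc1 and Tnni3 are lowest at 48 h with JQ1, and Lmcd1, Nr4a3 and Myc are highest at 6 h with JQ1.

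The 12 largest falls were in Aspn, Lmcd1, Trh, Mfap5, Tnc, Fndc1, Glod5, Myom2, Mfap4, Cd55, Nr4a3 and Dhrs7c, and several encode proteins of the extracellular matrix. Aspn, the small proteoglycan asporin, had log2 values of 4.23, 3.73 and 4.04 at 48 h with JQ1, against 8.20, 7.97 and 8.04 at 6 h with JQ1. It fell 16.8-fold (-4.07 ± 0.11, adjusted p = 3.0e-11) to a dim level, and with DMSO it rose by 0.56 ± 0.12 to a mean of 9.33 at 48 h. Its difference from DMSO, -4.63 ± 0.17, was the lowest of any gene. Tnc, the matricellular protein tenascin C, had 7.41, 7.34 and 7.32 at 48 h, against 10.37, 10.30 and 10.37 at 6 h (-2.99 ± 0.07). The 6 h level of Tnc lay near the 3 DMSO groups, whose means were 10.27 to 10.69, so nearly all of its distance from DMSO arose between 6 h and 48 h. Fndc1, a fibronectin type III domain protein, did likewise, with means of 6.35 at 48 h and 9.24 at 6 h (-2.89 ± 0.07) and with DMSO 9.72 at 48 h and 9.74 at 6 h.

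Lmcd1, Trh and Cd55 fell from 6 h levels above those of every DMSO group. Lmcd1, a LIM domain protein of muscle, had 9.48, 9.20 and 9.25 at 48 h, against 13.08, 13.01 and 12.97 at 6 h, a 13.1-fold fall (-3.71 ± 0.09). Its mean without PE, sampled at 90 min, was 8.95, close to the 48 h values. Trh, the precursor of thyrotropin-releasing hormone, averaged 5.88 at 48 h, which is dim, and 9.17 at 6 h (-3.29 ± 0.10), and it fell with DMSO too (-1.95 ± 0.11). Cd55, which protects cells from complement, averaged 7.98 at 48 h and 10.70 at 6 h (-2.72 ± 0.06), and its level without PE was 7.77. Dhrs7c, a short-chain dehydrogenase of the sarcoplasmic reticulum, averaged 5.52 at 48 h, which is dim, and 8.18 at 6 h (-2.66 ± 0.12), and with DMSO and PE 7.08 at 48 h and 8.85 at 6 h, against 9.46 without PE.

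Genes were grouped into 43 lists, 35 of pathways and gene classes and 8 of cell type markers. A list is described through named members where at least 4 were called in a direction at 1.5 times the share of all genes or more, which held for 36. No list test was run, so each count stands beside the shares of all genes raised and lowered, 27.2% and 26.4%.

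**Figure D3:**
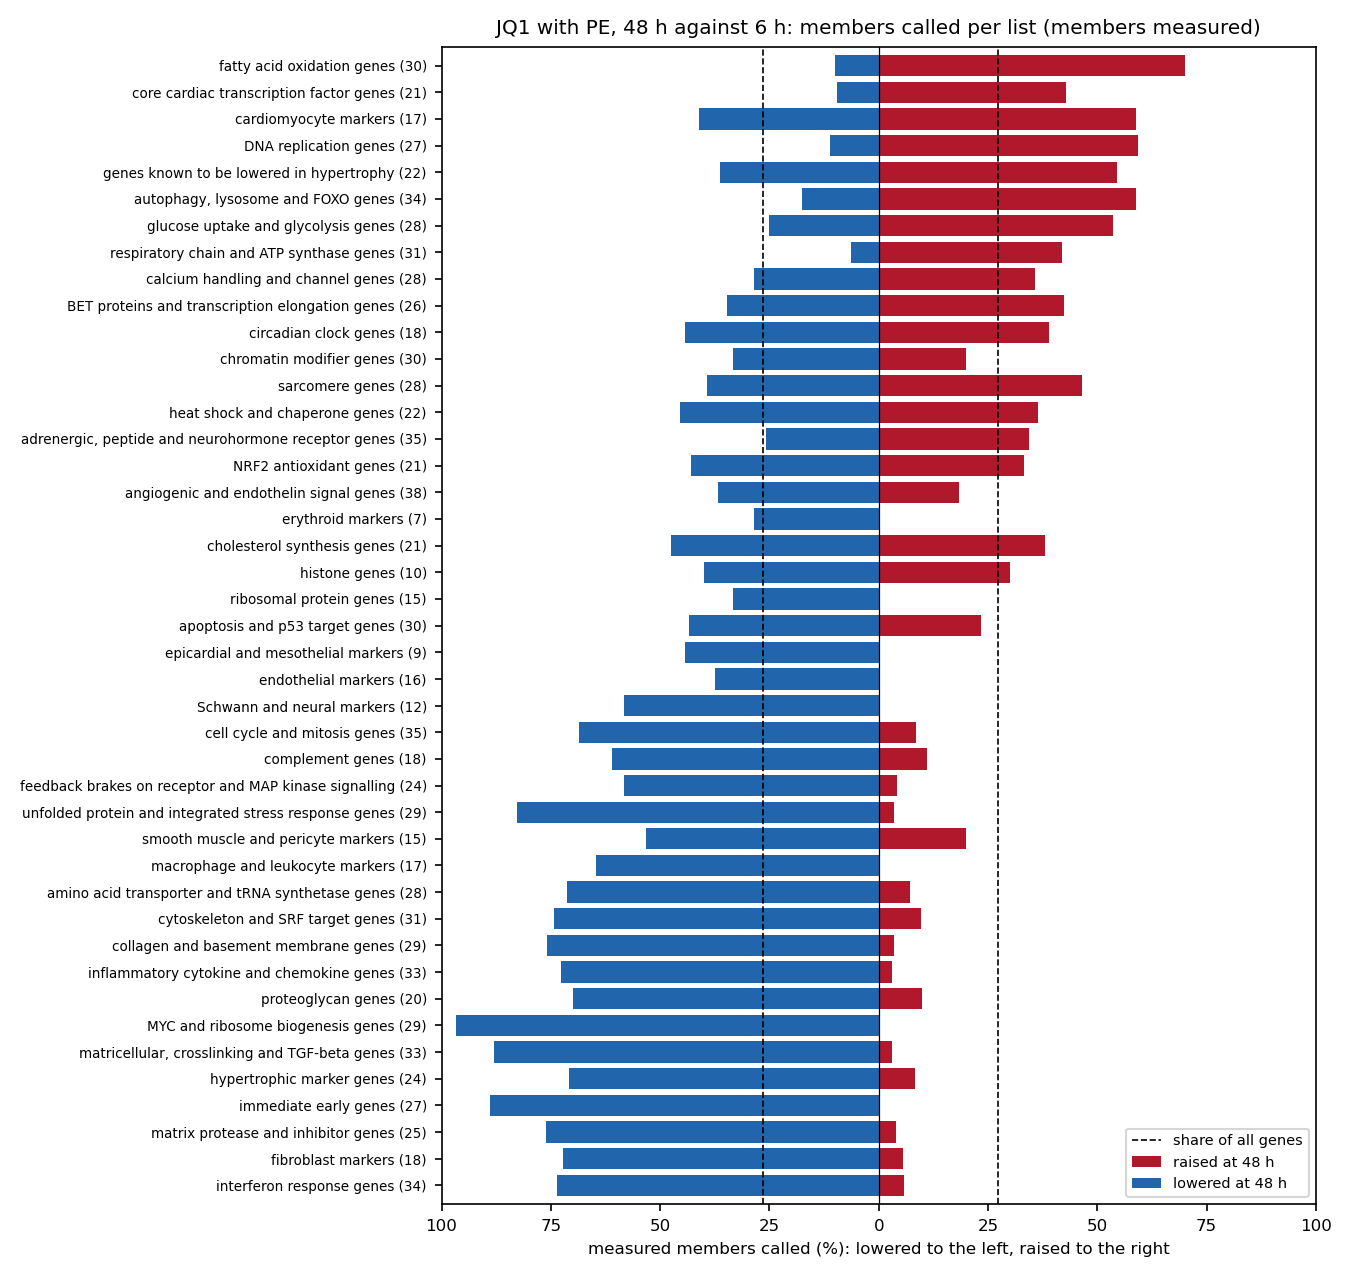
Share of measured members called at 48 h against 6 h with JQ1 for 43 gene lists, in percent: red bars to the right are raised, blue bars to the left are lowered, and dashed lines mark the shares over all genes, 27.2% raised and 26.4% lowered; the number of members measured is in brackets, and lists run from the highest median change at the top to the lowest at the bottom. MYC and ribosome biogenesis genes reach 96.6% lowered, fatty acid oxidation genes 70.0% raised, and interferon response genes, with 73.5% lowered, have the lowest median.

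Immediate early genes, transcription factors that growth signals switch on within minutes, were lowered at 48 h: 24 of 27 measured members fell, none rose, and the median log2 fold change was -0.70. With DMSO 19 fell and 1 rose, with a median of -0.34. Nr4a3, an orphan nuclear receptor, had 7.54, 7.32 and 7.34 at 48 h, against 10.06, 10.04 and 10.12 at 6 h (-2.67 ± 0.08), and with DMSO it fell by 1.94 on the log2 scale. Atf3, a stress-induced repressor, had 8.88, 8.67 and 8.74 at 48 h, against 11.51, 11.24 and 11.31 at 6 h (-2.59 ± 0.08). With DMSO, Atf3 fell by only 0.45, since its 6 h mean was 9.15, and the difference was -2.14 ± 0.12 (adjusted p = 4.7e-08). Fos, the AP-1 subunit, fell in both settings (-1.46 ± 0.06 with JQ1, -1.28 ± 0.07 with DMSO), with a difference of -0.19 ± 0.09 that was not called (adjusted p = 0.15). For 18 of the 27 genes the 6 h JQ1 arrays were the highest of the series.

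Genes that restrain receptor and MAP kinase signalling followed, with 14 of 24 lowered and 1 raised. Dusp2, a MAP kinase phosphatase, averaged 6.74 at 48 h and 8.38 at 6 h (-1.64 ± 0.06), and Errfi1, a feedback inhibitor of the EGF receptor, 8.86 at 48 h and 9.88 at 6 h (-1.03 ± 0.06). Rgs2, which turns off G alpha q signals downstream of the alpha1 receptor, fell by 1.47 with JQ1 and by 1.77 with DMSO, with a difference of 0.29 in the direction of a smaller fall with JQ1 (adjusted p = 0.014). Rcan1, the calcineurin inhibitor that calcineurin itself induces, averaged 10.97 at 48 h and 12.25 at 6 h (-1.28 ± 0.05), against a fall of 0.37 with DMSO. Arrdc4, an arrestin-domain protein, was the member that rose (0.34 ± 0.07).

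MYC is a transcription factor that drives ribosome production and nucleotide and polyamine synthesis, and its list was the most uniformly lowered: 28 of 29 measured MYC and ribosome biogenesis genes fell and none rose, with a median of -0.65. With DMSO 22 fell (median -0.29), and the difference was lower for 25. Myc had log2 values of 8.25, 8.01 and 8.07 at 48 h, against 10.59, 10.43 and 10.39 at 6 h, a 5.14-fold fall (-2.36 ± 0.08). At 6 h with JQ1 it was above every other array, and at 48 h its mean of 8.11 stood near those of DMSO with PE at 48 h (8.36) and of cells without PE (8.47). Rrp12, needed for export of ribosomal subunits, averaged 8.41 at 48 h and 9.96 at 6 h (-1.55 ± 0.06). Srm, spermidine synthase, averaged 9.73 at 48 h and 10.84 at 6 h (-1.12 ± 0.04), and Ppan, a ribosomal RNA processing factor, 8.72 at 48 h and 9.62 at 6 h (-0.90 ± 0.04). Ribosomal protein genes moved little: 5 of 15 fell and none rose, with a median of -0.06.

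The E-box that MYC binds was searched for in the promoters. The letters CACGTG, a palindrome and so the same on both strands, were present in 11 of 25 list members with a RefSeq promoter (44.0%) and in 979 of 10893 measured genes (8.99%); a match is a description and no evidence of binding. The promoter of Srm, 250 bases before to 50 after its start, is shown because Srm fell and holds 1 such box, in capitals, at position -173 from the start (RefSeq, GRCr8, 5′ to 3′).
Srm (chr5:164308752-164309051, plus strand): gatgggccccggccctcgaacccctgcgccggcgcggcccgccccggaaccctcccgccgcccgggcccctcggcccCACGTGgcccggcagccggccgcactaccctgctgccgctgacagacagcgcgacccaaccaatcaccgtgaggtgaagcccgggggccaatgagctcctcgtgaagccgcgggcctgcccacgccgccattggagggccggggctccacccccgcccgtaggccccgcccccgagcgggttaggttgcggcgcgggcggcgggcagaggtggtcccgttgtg

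The integrated stress response couples amino acid shortage and misfolded protein to the factor ATF4, and 24 of 29 genes of it and of the unfolded protein response fell (1 rose, median -0.30). With DMSO 23 fell and 1 rose (median -0.25), so most of this fall was present in both settings, and the difference was lower for 10 and higher for 2. Chac1, which degrades glutathione, had 9.30, 9.10 and 9.22 at 48 h, against 10.96, 11.04 and 10.97 at 6 h (-1.78 ± 0.06, and -1.05 ± 0.07 with DMSO). Trib3, a pseudokinase induced by ATF4, averaged 8.05 at 48 h and 9.36 at 6 h (-1.31 ± 0.05), and Atf4 itself 12.18 at 48 h and 13.12 at 6 h (-0.94 ± 0.04). Phgdh, which opens serine synthesis, fell by 0.94 ± 0.05. Nupr1, a stress-induced chromatin protein, went the other way (0.51 ± 0.06).

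Amino acid transporters and tRNA synthetases moved with them, 20 of 28 lowered and 2 raised (median -0.43). The cationic amino acid carriers Slc7a1 and Slc7a3 fell by 1.29 ± 0.05 and 1.57 ± 0.06, the glutamine carrier Slc1a5 fell by 1.23 ± 0.05, and Slc3a2, the shared heavy chain of several carriers, fell by 1.02 ± 0.05. Slc1a3, a glutamate transporter, rose by 1.07 ± 0.05 to a mean of 10.38 at 48 h, against 9.31 at 6 h. With DMSO, 18 members fell and 1 rose.

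Proliferation genes gave the clearest contrast with DMSO. Mitosis genes are switched on late in the cell cycle, and neonatal myocytes and the non-myocytes beside them can still divide. Of 35 measured cell cycle and mitosis genes, 24 fell and 3 rose at 48 h with JQ1 (median -0.25), while all 35 rose with DMSO (median 1.30), and the difference was lower for all 35. The same 24 genes that fell with JQ1 rose with DMSO. Prc1, which bundles microtubules of the mitotic spindle midzone, had log2 values of 8.79, 8.78 and 8.81 at 48 h with JQ1, against 9.51, 9.43 and 9.42 at 6 h with JQ1 (-0.66 ± 0.04), and means of 11.13 at 48 h and 9.86 at 6 h with DMSO (1.28 ± 0.04). The difference for Prc1 was -1.94 ± 0.06 (adjusted p = 1.3e-09). Ect2, which starts cytokinesis, had 8.06, 8.17 and 8.04 at 48 h, against 8.58, 8.63 and 8.53 at 6 h (-0.49 ± 0.06), and rose by 1.59 ± 0.06 with DMSO. None of these falls reached 2-fold.

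Nuf2, a kinetochore protein, fell by 0.50 ± 0.04 with JQ1 and rose by 0.97 with DMSO, and Ube2c, the ubiquitin enzyme of mitotic exit, fell by 0.55 ± 0.06 with JQ1 and rose by 1.04 with DMSO. Hmmr, a spindle and hyaluronan-binding protein, was the largest exception: it averaged 8.11 at 48 h and 7.30 at 6 h with JQ1 (0.81 ± 0.05), yet still rose less than with DMSO (1.43). For 25 of the 35 genes the 48 h JQ1 arrays were the lowest of the series.

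DNA replication genes differed from the mitosis genes. With JQ1, 16 of 27 rose and 3 fell (median 0.17), and with DMSO all 27 rose (median 0.61), with the difference lower for 20. Rrm1, the large subunit of ribonucleotide reductase, rose by 0.40 ± 0.04 with JQ1 and by 0.77 with DMSO, and Dut, which clears dUTP, rose by 0.41 ± 0.03 with JQ1 and by 0.56 with DMSO. Pola1, of DNA polymerase alpha, rose by 0.63 ± 0.06 with JQ1 and by 0.69 with DMSO (difference -0.05, adjusted p = 0.70), and Mcm2, of the replicative helicase, by 0.42 ± 0.05 with JQ1 and by 0.46 with DMSO (difference -0.04, adjusted p = 0.72). Tk1, thymidine kinase, fell with JQ1 (-0.32 ± 0.06) and rose with DMSO (0.59). All these genes were at lower levels with JQ1 than with DMSO at 48 h, Rrm1 at 9.33 with JQ1 and 10.54 with DMSO, for instance.

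Promoters of late cell cycle genes are known for the cell cycle homology region, CHR (here TTTGAA), and for CCAAT boxes. The 2 mitosis genes with values by array above, Prc1 and Ect2, show the arrangement. Hmmr, which rose with JQ1, holds both as well, and Nuf2, which fell, holds a CHR but no CCAAT box. TTTGAA on either strand was in 20 of 30 list members with a RefSeq promoter (66.7%), against 1317 of 10893 measured genes (12.1%) and 1 of 24 DNA replication genes (4.17%). Other lists held it more often than all genes did, such as complement genes (5 of 12, 41.7%) and histone genes (3 of 9, 33.3%). CCAAT on either strand was in 24 of 30 (80.0%), against 4076 of 10893 (37.4%) and 14 of 24 DNA replication genes (58.3%), and lists such as the unfolded protein and cholesterol synthesis genes held it as often (80.8% and 80.0%). In the promoters below (RefSeq, GRCr8, 5′ to 3′, 250 bases before to 50 after the start), capitals mark TTTGAA and CCAAT on either strand; the TTTGAA nearest the start begins at position -18 in Prc1 and at -3 in Ect2.
Prc1 (chr1:143659231-143659530, plus strand): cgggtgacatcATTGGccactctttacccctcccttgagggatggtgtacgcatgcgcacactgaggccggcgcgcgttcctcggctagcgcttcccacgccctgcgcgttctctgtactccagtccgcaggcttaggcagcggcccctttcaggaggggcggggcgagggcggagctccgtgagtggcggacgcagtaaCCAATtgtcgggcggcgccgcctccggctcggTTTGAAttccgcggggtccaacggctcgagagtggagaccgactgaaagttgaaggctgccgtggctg
Ect2 (chr2:111966577-111966876, minus strand): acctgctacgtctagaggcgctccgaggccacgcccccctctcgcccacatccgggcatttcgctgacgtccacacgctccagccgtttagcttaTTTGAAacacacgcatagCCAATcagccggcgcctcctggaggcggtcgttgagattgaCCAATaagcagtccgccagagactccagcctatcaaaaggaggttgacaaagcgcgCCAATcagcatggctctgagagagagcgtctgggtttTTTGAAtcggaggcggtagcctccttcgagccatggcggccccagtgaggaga

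Interferon response genes encode antiviral proteins and antigen-processing machinery and are read as a sign of type I or type II interferon signalling. Of 34 measured, 25 fell and 2 rose with JQ1, 16 of them by at least 2-fold, with a median of -0.87, the lowest of all lists. With DMSO 3 rose and 2 fell (median 0.00), and the difference was lower for 23. Bst2, the membrane protein tetherin, had 6.87, 7.25 and 6.84 at 48 h, against 9.73, 9.65 and 9.46 at 6 h (-2.63 ± 0.16), and with DMSO 10.14 at 48 h and 10.11 at 6 h. Ifi27, among the brightest genes of the list, had 11.89, 11.94 and 11.89 at 48 h, against 13.37, 13.33 and 13.33 at 6 h (-1.43 ± 0.04), with 13.52 at 48 h and 13.60 at 6 h in the DMSO arm. For 25 of the 34 genes the 48 h JQ1 arrays were the lowest of the series, and 7 genes were dim at both times.

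The chemokines Cxcl11 and Cxcl10, which draw T cells, fell by 2.22 ± 0.09 and 1.71 ± 0.12, Cxcl10 to a dim level. Irf1, a transcription factor of the interferon pathway, was raised (0.39 ± 0.04). Chosen after their values were seen, the ubiquitin-like modifier Isg15 fell by 2.21, the interferon regulator Irf7 by 1.65 and the immunoproteasome subunit Psmb8 by 1.06. A pair of GAAA parted by any 2 bases (NN) on either strand, the core of the interferon-stimulated response element, was in 17 of 27 list members with a promoter (63.0%), against 328 of 10893 measured genes (3.01%). Capitals mark it in the promoters of the 2 members with values by array above; Ifi27 has copies at positions -169 and -84 from the start, and Bst2 2 overlapping ones at -131 and -125 (RefSeq, GRCr8, 5′ to 3′).
Ifi27 (chr6:128355062-128355361, plus strand): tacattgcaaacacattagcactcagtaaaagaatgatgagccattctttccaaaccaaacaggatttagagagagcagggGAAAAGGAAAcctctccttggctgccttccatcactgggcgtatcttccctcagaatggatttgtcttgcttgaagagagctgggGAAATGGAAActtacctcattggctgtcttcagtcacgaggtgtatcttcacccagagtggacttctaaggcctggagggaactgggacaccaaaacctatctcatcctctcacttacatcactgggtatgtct
Bst2 (chr16:18254918-18255217, minus strand): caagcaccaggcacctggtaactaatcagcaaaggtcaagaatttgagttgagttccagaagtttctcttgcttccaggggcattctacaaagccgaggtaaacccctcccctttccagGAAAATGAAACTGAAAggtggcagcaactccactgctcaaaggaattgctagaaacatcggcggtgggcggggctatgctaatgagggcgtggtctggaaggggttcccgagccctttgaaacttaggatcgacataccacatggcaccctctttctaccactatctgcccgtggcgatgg

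Inflammatory cytokines and chemokines fell as well, 24 of 33 lowered and 1 raised, with a median of -0.60 and 10 members dim at both times. With DMSO 11 fell and 2 rose (median -0.09). Ccl2, the monocyte attractant, had 11.39, 11.29 and 11.35 at 48 h, against 12.81, 12.70 and 12.76 at 6 h (-1.41 ± 0.04), and means of 13.43 at 48 h and 13.52 at 6 h with DMSO. Ccl20 averaged 9.77 at 48 h and 12.34 at 6 h (-2.57 ± 0.10), and Cxcl1, a neutrophil attractant, 10.86 at 48 h and 12.25 at 6 h (-1.39 ± 0.06). Cxcl16 fell with JQ1 (-1.24 ± 0.05) and rose with DMSO (0.28). Il6 fell 4.65-fold (-2.22 ± 0.14) from 6.81, 6.55 and 6.55 at 6 h, and its 48 h values of 4.24, 4.36 and 4.66 were dim, so the size is uncertain. The alarmin Il33 rose (0.42 ± 0.08), also from a dim level.

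Complement genes had 11 of 18 lowered and 2 raised, with 9 dim at both times. The C1 proteases C1s and C1r averaged 9.89 and 9.87, in that order, at 48 h, against 11.21 and 11.17 at 6 h (-1.32 ± 0.05 and -1.30 ± 0.05), and Serping1, which inhibits them, fell by 1.69 ± 0.07. Cd59b, a complement-protective membrane protein, rose by 0.39 ± 0.04. Without dim genes the count of complement genes lowered was 7.

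The extracellular matrix was lowered across its classes. Of 29 collagen and basement membrane genes 22 fell and 1 rose (median -0.54), of 33 matricellular, crosslinking and TGF-beta genes 29 fell and 1 rose (median -0.67), of 20 proteoglycan genes 14 fell and 2 rose (median -0.63), and of 25 matrix proteases and their inhibitors 19 fell and 1 rose (median -0.72). In the DMSO arms the matching counts lowered were 14, 9, 8 and 11, with medians between -0.17 and -0.06. These are whole-culture arrays, in which fewer cells of a type and less RNA per cell cannot be told apart.

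Col1a1, the main fibrillar collagen chain, averaged 11.48 at 48 h and 12.68 at 6 h, a 2.30-fold fall (SE 0.04 on the log2 scale), and fell by 0.36 with DMSO. Col6a1 and Col6a2, of the microfibrillar collagen VI, fell by 1.05 ± 0.05 and 1.07 ± 0.05, and Col15a1, of the basement membrane zone, by 1.24 ± 0.06. Col8a1 was the collagen that rose, by 0.73 ± 0.06 with JQ1 and by 1.07 with DMSO.

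Postn, the matricellular protein periostin, had 11.37, 11.42 and 11.44 at 48 h, against 12.97, 12.94 and 12.94 at 6 h (-1.54 ± 0.04), with 13.20 at 48 h and 13.25 at 6 h in the DMSO arm. Lox, which crosslinks collagen, had 9.56, 9.39 and 9.55 at 48 h, against 11.71, 11.79 and 11.76 at 6 h (-2.26 ± 0.06), and did not change past the threshold with DMSO (-0.06). At 6 h these genes were still close to DMSO and at 48 h far below it. Bmp2, a ligand of the TGF-beta family, fell by 2.03 ± 0.05, and Tgfb2, another ligand of that family, changed by -1.38 ± 0.05. Tgfbi, a TGF-beta-induced adhesion protein, was the exception, raised with JQ1 (0.62 ± 0.07) and lowered with DMSO (-0.41). Ccn2, connective tissue growth factor, averaged 13.57 at 48 h and 14.06 at 6 h (-0.49 ± 0.04), against 14.16 at 48 h and 14.08 at 6 h with DMSO.

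Among the proteoglycans, Ogn, osteoglycin, averaged 7.84 at 48 h and 10.21 at 6 h (-2.37 ± 0.07), Dcn, decorin, 10.52 at 48 h and 11.63 at 6 h (-1.12 ± 0.04), and Sdc1, a cell-surface heparan sulfate carrier, 7.79 at 48 h and 8.97 at 6 h (-1.18 ± 0.05). Gpc1 rose by 0.11 ± 0.04, a call lost without any of 4 of the 6 JQ1 arrays. Among the proteases, Plat, tissue plasminogen activator, fell by 1.58 ± 0.03, Mmp23 by 2.08 ± 0.06, Adamts9 by 1.26 ± 0.05 and the inhibitor Serpine2 by 1.17 ± 0.05. Mmp11, a stromelysin, rose by 0.81 ± 0.08.

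Fibroblast markers moved with the matrix genes, and several are matrix genes themselves. Of 18 measured, 13 fell, 8 of them by at least 2-fold, and 1 rose (median -0.79). Their mean level was 9.20 to 9.21 over the 48 h JQ1 arrays and 10.09 to 10.11 over the 6 h JQ1 arrays, and their summed signal 48558 to 49754 at 48 h and 71291 to 71666 at 6 h. In the DMSO and PE arms the mean level was 10.39 to 10.40 at 48 h and 10.50 to 10.52 at 6 h. Dpt, dermatopontin, had 7.58, 7.44 and 7.43 at 48 h, against 10.18, 10.12 and 10.11 at 6 h (-2.65 ± 0.05). Mfap5, a microfibril protein, averaged 6.09 at 48 h, which is dim, and 9.11 at 6 h (-3.02 ± 0.08), and Fbln2, fibulin 2, 7.88 at 48 h and 9.87 at 6 h (-1.98 ± 0.06). Ddr2, a collagen receptor of fibroblasts, rose (0.34 ± 0.05). The part of a changed share of fibroblasts in the falls of matrix, cytokine and complement genes was not tested.

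**Figure D4:**
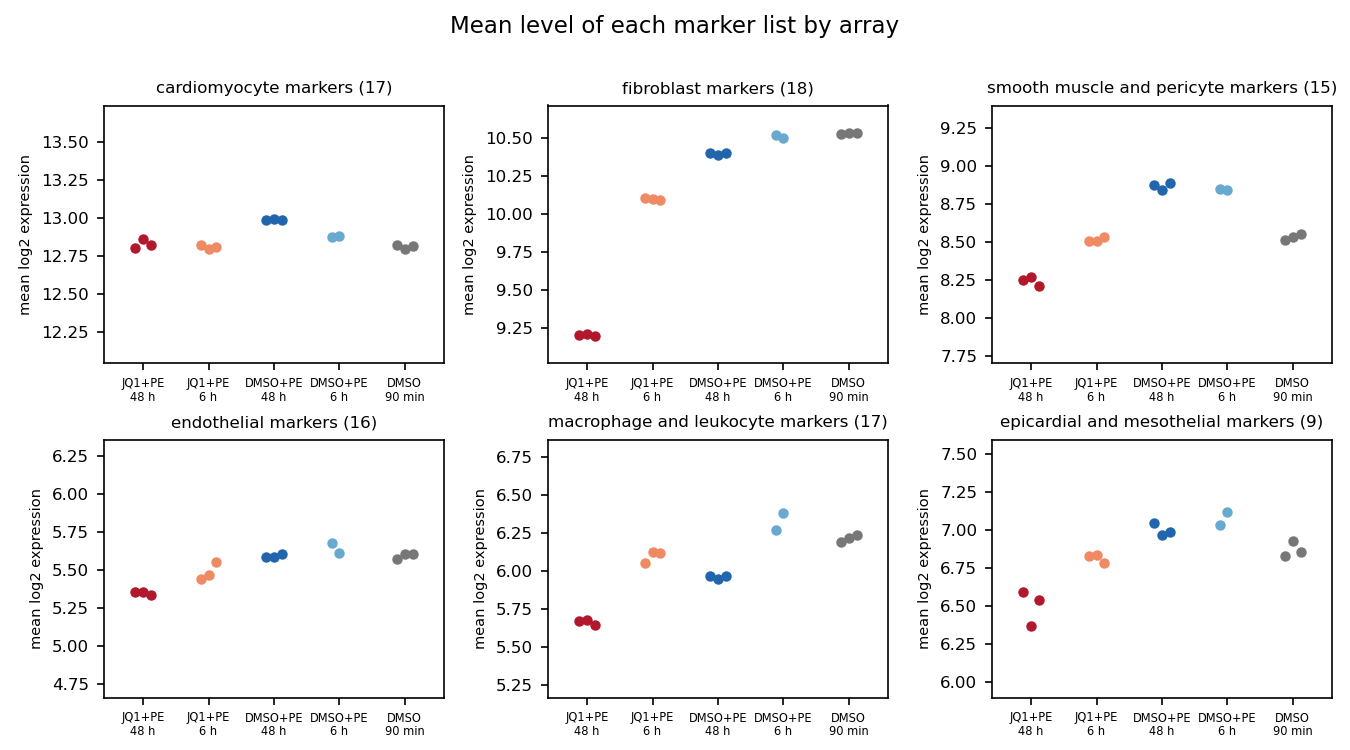
Mean log2 expression of the measured members of 6 cell type marker lists on each of the 14 arrays; each point is an array, the number of members is in brackets, and every panel spans the same range. Cardiomyocyte markers lie at 12.80 to 12.86 at 48 h and 12.79 to 12.82 at 6 h with JQ1, and fibroblast markers at 9.20 to 9.21 at 48 h and 10.09 to 10.11 at 6 h with JQ1.

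The cells expressed heart muscle markers at high level, and these split in direction. Of 17 measured cardiomyocyte markers 10 rose and 7 fell, and their mean level was 12.80 to 12.86 over the 48 h JQ1 arrays and 12.79 to 12.82 over the 6 h JQ1 arrays. Endothelial markers were largely dim: 12 of 16 were dim at both times, 6 fell, none rose, and the mean level was 5.34 to 5.36 at 48 h and 5.45 to 5.56 at 6 h. Of 17 macrophage and leukocyte markers 11 were dim at both times, 11 fell and none rose (median -0.34), and with DMSO 11 fell and none rose too (median -0.31), the difference being lower for 3 and higher for 1, with Lyz2, lysozyme of macrophages, at 8.34 at 48 h and 9.47 at 6 h (-1.12 ± 0.08). The defining leukocyte marker Ptprc (CD45) was dim at both times, at 4.44 at 48 h and 4.79 at 6 h, and its change of -0.34 was not called.

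Smooth muscle and pericyte markers had 8 of 15 lowered and 3 raised, with Acta2, smooth muscle actin, which fibroblasts and neonatal myocytes also make, at 9.42, 9.43 and 9.62 at 48 h, against 10.64, 10.63 and 10.59 at 6 h (-1.13 ± 0.05). Cspg4 and Mcam fell (-1.01 ± 0.07 and -0.63 ± 0.04), Rgs5 fell between dim levels, and Myh11, smooth muscle myosin, rose (0.80 ± 0.07). Schwann and neural markers had 7 of 12 lowered with 9 dim at both times, epicardial and mesothelial markers 4 of 9 lowered, and erythroid markers 2 of 7 lowered with 4 dim, and no member of these 3 lists rose. Pmp22, a membrane protein also made by fibroblasts, fell by 0.86 ± 0.04, and the keratin gene Krt18 fell with JQ1 (-0.88 ± 0.11) and rose with DMSO (0.47).

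Sarcomere genes split into both directions. Of 28 measured, 13 rose and 11 fell with JQ1, against 12 and 3 with DMSO. The median with JQ1 was near 0, while the members ranged from -2.80 to 1.14 with JQ1. Among those raised, Myoz2, a Z-disc protein that binds calcineurin, had 13.01, 13.08 and 13.05 at 48 h, against 11.93, 11.88 and 11.92 at 6 h (1.14 ± 0.04). Mybpc3, the cardiac myosin-binding protein C, had 13.58, 13.62 and 13.54 at 48 h, against 12.69, 12.72 and 12.70 at 6 h (0.88 ± 0.04), and at 48 h stood above every other array. Unc45b, a chaperone of myosin, and Nexn, a Z-disc actin-binding protein, rose by 0.81 ± 0.04 and 0.63 ± 0.03.

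Among those lowered, Tnni3, cardiac troponin I, had 12.21, 12.29 and 12.31 at 48 h, against 13.60, 13.57 and 13.58 at 6 h (-1.31 ± 0.04), while with DMSO it averaged 13.82 at 48 h and 13.84 at 6 h. Myom2, a protein of the M-band of adult heart, averaged 6.75 at 48 h and 9.55 at 6 h (-2.80 ± 0.08), and rose with DMSO (0.71 ± 0.09). Picked after their values were seen, the atrial light chains Myl4 and Myl7 fell by 1.63 and 1.09, slow skeletal troponin I, Tnni1, by 0.97, and the ventricular light chain Myl3 by 0.80, whereas the M-band protein Myom1 rose by 0.68.

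Most genes of the hypertrophic marker list fell with JQ1, while the classical markers named here split: Nppb and Acta1 fell, and Nppa and Myh7 rose. Of 24 hypertrophic marker genes 17 fell and 2 rose (median -0.69), while with DMSO 9 rose and 7 fell (median 0.06), and the difference was lower for 19. Nppb, the natriuretic peptide BNP, averaged 13.28 at 48 h and 14.01 at 6 h (-0.74 ± 0.04), and rose with DMSO (0.23 ± 0.05). Acta1, skeletal actin, fell by 0.26 ± 0.03 with JQ1 and rose by 0.23 with DMSO. Nppa, the atrial peptide ANP, had 14.44, 14.45 and 14.44 at 48 h, against 14.21, 14.21 and 14.18 at 6 h (0.25 ± 0.03), with values near the top of the scale and a rise of 0.44 with DMSO. Its difference from DMSO, -0.20 ± 0.05, was not called after repeated quantile normalization (-0.08, adjusted p = 0.36).

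Myh7, the beta myosin heavy chain, had 13.93, 14.05 and 14.01 at 48 h, against 13.53, 13.44 and 13.50 at 6 h (0.51 ± 0.04), and rose by 0.43 with DMSO. The difference of 0.08 ± 0.06 was not called in the fit of all arrays but was after repeated quantile normalization (0.19, adjusted p = 0.02). Myh6, the alpha chain, fell by 0.17 ± 0.03. Atp2a2, the calcium pump SERCA2, had a change of -0.08 ± 0.03 that was not called (adjusted p = 0.053). Its mean over all probe sets changed by -0.39 (adjusted p = 9.76e-06). Its 4 other probe sets gave -0.72 to -0.17. Of these, 2 that averaged 12.20 and 10.51 at 48 h with JQ1 each changed by -0.72 (limma adjusted p = 1.2e-08 and 1.4e-06), and the lowest at 48 h was not called. The difference of Atp2a2 from DMSO, 0.25 ± 0.05 (adjusted p = 0.0013), became -0.01 on the mean over all probe sets. Xirp1, an actin-binding protein of the intercalated disc, changed by -1.70 ± 0.06 and Uck2, a uridine kinase, by -1.65 ± 0.05. Enah, an actin regulator, fell 2.30-fold with JQ1, with means of 10.63 at 48 h and 11.84 at 6 h, and rose with DMSO (0.41). Clcf1, a cytokine of the interleukin 6 family, fell between dim levels (4.41 mean at 6 h).

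Of 31 genes for the cytoskeleton or driven by the serum response factor SRF, 23 fell and 3 rose (median -0.44). Flnc, the muscle filamin, had 11.41, 11.34 and 11.31 at 48 h, against 13.42, 13.35 and 13.45 at 6 h (-2.05 ± 0.04), the 6 h values being the highest of the series. The tubulins Tubb2a and Tubb6 fell by 1.50 ± 0.04 and 1.30 ± 0.04, and the actin-binding Tagln2 by 1.00 ± 0.03. Tpm2, a tropomyosin, rose by 0.17 ± 0.05. For 15 of these genes the 6 h JQ1 arrays were the highest of the 14, and for 12 the 48 h JQ1 arrays were the lowest.

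Genes known to be lowered in hypertrophy had 12 of 22 raised and 8 lowered (median 0.16). Kcnj11, a pore subunit of the ATP-sensitive potassium channel, had 7.45, 7.54 and 7.38 at 48 h, against 5.78, 5.98 and 5.87 at 6 h (1.58 ± 0.06, from a dim level), and stayed below the other groups, which averaged 8.66 to 9.95. Ryr2, the calcium release channel, averaged 12.44 at 48 h and 11.87 at 6 h (0.56 ± 0.04), against 12.55 at 48 h and 12.50 at 6 h with DMSO. Mb, myoglobin, was the main exception, with 9.86, 9.79 and 9.84 at 48 h, against 12.27, 12.11 and 12.20 at 6 h (-2.36 ± 0.06), and it fell with DMSO by 0.97.

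Cardiac transcription factors rose more often than they fell, 9 against 2 of 21 (median 0.19). Irx4, the ventricular Iroquois factor, had 11.30, 11.35 and 11.35 at 48 h, against 9.97, 10.02 and 9.98 at 6 h (1.34 ± 0.05), with 11.13 at 48 h and 11.26 at 6 h in the DMSO arm. Irx3, of the ventricular conduction system, rose by 0.82 ± 0.06, and Mef2c and Mef2a, activators of muscle genes, by 0.79 ± 0.05 and 0.58 ± 0.03. Gata4, which drives hypertrophic and cardiac genes, fell by 0.34 ± 0.04, and averaging all its probe sets took away the call for its difference from DMSO (-0.04, adjusted p = 0.79).

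Fatty acid oxidation genes had 21 of 30 raised and 3 lowered (median 0.21), with 10 raised and 6 lowered with DMSO. The respiratory chain and ATP synthase had 13 of 31 raised, 2 lowered and 16 not called (median 0.07), with 8 raised and 1 lowered with DMSO. Etfdh, which passes electrons of fat oxidation to ubiquinone, averaged 10.69 at 48 h and 10.03 at 6 h (0.66 ± 0.03), and Slc25a20, the carnitine carrier of mitochondria, 10.37 at 48 h and 9.68 at 6 h (0.69 ± 0.05). Decr1, an enzyme for unsaturated fats, rose by 0.37 ± 0.03, and Ucp2, an uncoupling protein, by 0.70 ± 0.05. Acot1, a cytosolic thioesterase, fell between dim levels.

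In the respiratory chain, Sdhd and Sdhc, membrane anchors of complex II, rose by 0.62 ± 0.03 and 0.30 ± 0.03, and the complex I subunits Ndufb10 and Ndufs3 by 0.50 ± 0.03 and 0.35 ± 0.03. Ndufb8 fell by 0.17 ± 0.04. These changes were small beside that of Ppargc1a. For 18 of the 31 genes the 6 h JQ1 arrays were the lowest of the series.

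Glucose uptake and glycolysis genes had 15 of 28 raised and 7 lowered with JQ1 (median 0.11), and 11 raised and 5 lowered with DMSO (median 0.09). Pfkm, muscle phosphofructokinase, averaged 10.74 at 48 h and 9.73 at 6 h (1.02 ± 0.04), Pygb, a glycogen phosphorylase, 11.71 at 48 h and 10.84 at 6 h (0.87 ± 0.05), and Hk1, a hexokinase, 9.79 at 48 h and 9.23 at 6 h (0.55 ± 0.04). Pdk2, a second kinase of pyruvate dehydrogenase, rose by 0.99 ± 0.04. Pgam2, the muscle phosphoglycerate mutase, fell by 1.63 ± 0.07. Cholesterol synthesis genes split, 8 raised and 10 lowered of 21, whereas with DMSO 13 rose and none fell (difference lower for 12). Sqle, squalene epoxidase, fell by 0.51 ± 0.04, Insig1 and Nsdhl by 0.30 ± 0.04 and 0.29 ± 0.04, and Hsd17b7 by 0.49 ± 0.06, while Sc5d rose by 0.49 ± 0.06.

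Autophagy, lysosome and FOXO target genes, the machinery of protein and organelle turnover, had 20 of 34 raised and 6 lowered with JQ1 (median 0.15), and 1 raised and 13 lowered with DMSO (median -0.09). The difference was higher for 20. Pik3ip1 led the list. Klf15, a glucocorticoid- and fasting-induced factor, averaged 8.81 at 48 h and 7.83 at 6 h (0.98 ± 0.07), against 7.96 at 48 h and 7.95 at 6 h with DMSO. Wipi1, an autophagosome protein, averaged 10.88 at 48 h and 10.13 at 6 h (0.75 ± 0.04) on its brightest probe set. Another Wipi1 probe set, at 7.63 at 48 h and 7.52 at 6 h with JQ1, changed by 0.11 and was not called (limma adjusted p = 0.27). Atg5, of the LC3 conjugation machinery, rose by 0.42 ± 0.04 on its brightest probe set, but the mean over all its probe sets was not called (0.09, adjusted p = 0.0645). Ctsk, cathepsin K, a collagen-degrading protease of fibroblasts and osteoclasts, fell by 1.24 ± 0.05. For 14 of the 34 genes the 48 h JQ1 arrays were the highest of the series.

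**Figure D5:**
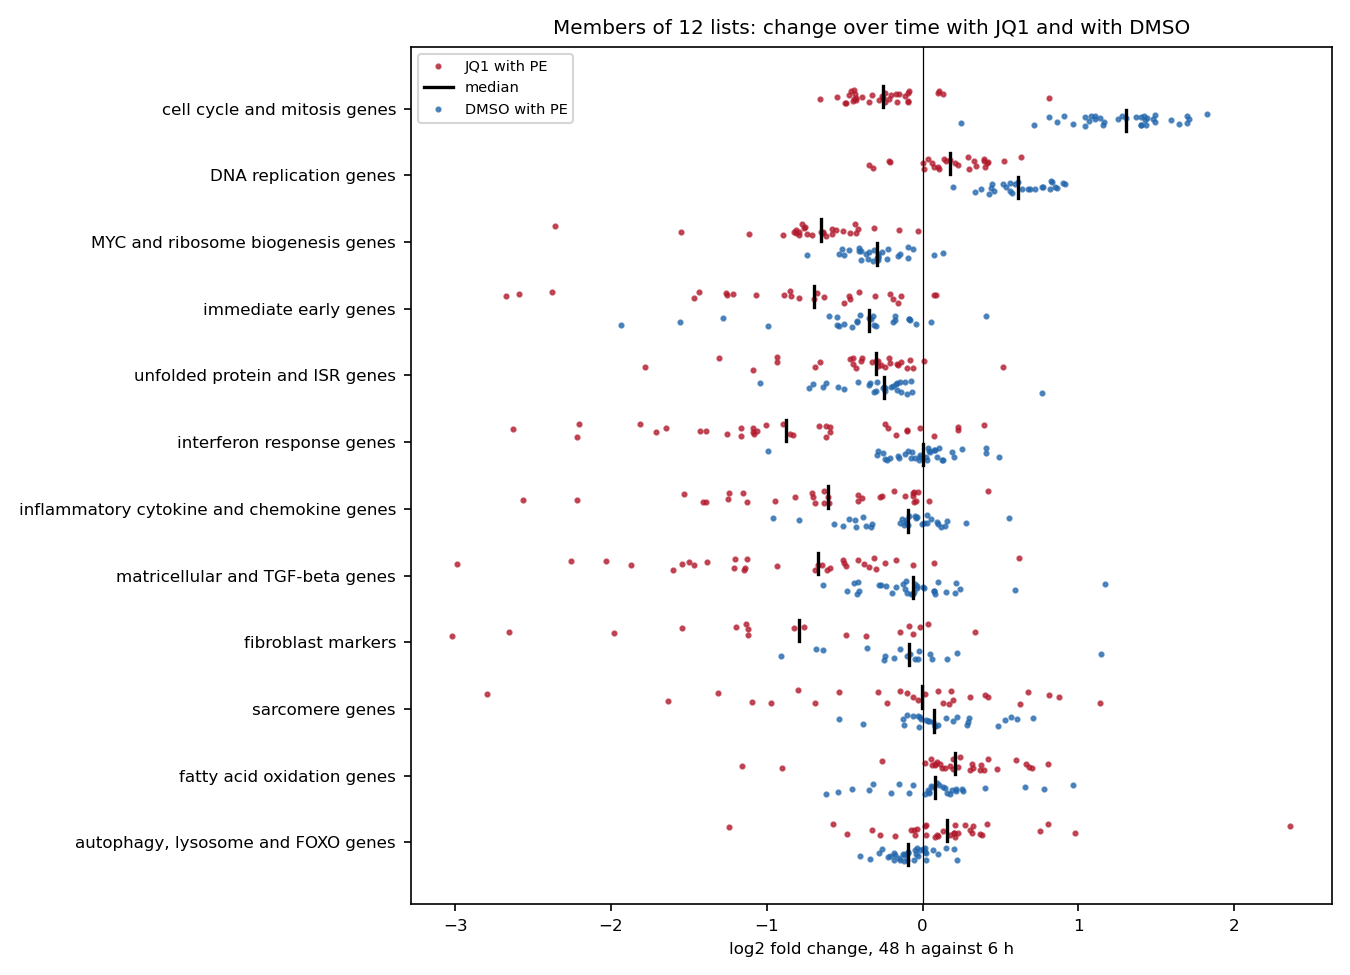
Log2 fold change at 48 h against 6 h of the measured members of 12 lists, with JQ1 and PE in red (upper row of each list) and with DMSO and PE in blue (lower row); points are genes and black bars are medians. The median of cell cycle and mitosis genes is -0.25 with JQ1 and 1.30 with DMSO, and that of interferon response genes is -0.87 with JQ1 and 0.00 with DMSO.

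The BET family is the target of JQ1, and Brd2 and Hexim1 are genes known to go up when BET proteins are inhibited. Of 26 BET and transcription elongation genes 11 rose and 9 fell, none by 2-fold, with a median of 0.04. Brd2 had 11.37, 11.29 and 11.35 at 48 h with JQ1, against 11.66, 11.65 and 11.57 at 6 h with JQ1, and means of 9.17 at 48 h and 9.62 at 6 h with DMSO. Its fall of 0.29 ± 0.05 was not called on the mean of its probe sets (-0.10, adjusted p = 0.14). That mean includes a dim probe set, at 4.53 at 48 h and 4.44 at 6 h with JQ1. The difference of Brd2 from its fall with DMSO was not called (0.16 ± 0.07, adjusted p = 0.096), but was with trended and robust eBayes (adjusted p = 0.039). With replicate 1 of the 6 h DMSO and PE arrays left out, which kept 1 array there, the difference was 0.24. Hexim1, which holds the elongation kinase P-TEFb inactive, averaged 12.66 at 48 h and 12.57 at 6 h with JQ1, and its change of 0.09 ± 0.04 was not called (adjusted p = 0.094), though it was after median centring (0.10, adjusted p = 0.04), repeated quantile normalization (0.15) and trended and robust eBayes. With DMSO, Hexim1 stood at 11.03 at 48 h and 11.26 at 6 h. At both times both genes stood above their DMSO means.

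Mllt3, a subunit of elongation complexes, rose by 0.96 ± 0.08, and the negative elongation factor subunits Nelfcd and Nelfb by 0.64 ± 0.05 and 0.33 ± 0.03. Supt4h1, of the elongation factor DSIF, rose with JQ1 (0.42 ± 0.04) and fell with DMSO (-0.20). Ell2, an elongation factor, fell by 0.44 ± 0.06. Of 10 histone genes 4 fell and 3 rose, with Hist3h2ba at 7.95, 7.73 and 7.69 at 48 h, against 8.73, 8.70 and 8.73 at 6 h (-0.93 ± 0.08), above the DMSO means of 7.26 at 48 h and 7.35 at 6 h. H2ac25, H2ax and H3c1 fell too (-0.43 ± 0.05, -0.30 ± 0.06 and -0.35 ± 0.11), the last without a call when any of 3 JQ1 arrays was left out, and H2aj rose (0.43 ± 0.05).

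Stress and clock genes gave mixed counts. Heat shock and chaperone genes had 10 of 22 lowered and 8 raised: Dnajb5, Hspb8, Hspa1a and Hsph1 fell (-1.08 ± 0.04, -0.85 ± 0.04, -0.70 ± 0.06 and -0.36 ± 0.04), and the muscle chaperone Hspb2 rose (0.79 ± 0.05). NRF2 antioxidant genes had 9 of 21 lowered and 7 raised: Gsta4, Txnrd1, Srxn1 and Gstm1 fell (-1.07 ± 0.04, -1.10 ± 0.06, -1.05 ± 0.06 and -0.75 ± 0.05), and Gpx3, a secreted peroxidase, rose (0.62 ± 0.04). Apoptosis and p53 target genes had 13 of 30 lowered and 7 raised. Gadd45g, a growth arrest gene, averaged 11.12 at 48 h and 12.79 at 6 h (-1.67 ± 0.06), the survival factor Mcl1 fell by 0.98 ± 0.05 and the nuclease gene Aen by 0.50 ± 0.04. The death receptor Fas fell by 0.66 ± 0.04 on its brightest probe set, with no call on the mean of its probe sets (-0.11, adjusted p = 0.11). The other Fas probe sets were dim, and 1 of them rose (0.30, limma adjusted p = 0.024). Ccng1, a p53 target, rose by 0.49 ± 0.04. The counts lowered and raised with DMSO were 5 and 4 for heat shock, 11 and 5 for NRF2, and 13 and 4 for apoptosis and p53 target genes.

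Circadian clock genes had 8 of 18 lowered and 7 raised. Bmal1, which activates the clock's negative arm, had 7.14, 7.30 and 7.19 at 48 h, against 8.87, 8.81 and 8.83 at 6 h (-1.63 ± 0.05), and its partner Npas2 fell by 0.95 ± 0.06 to a dim level. Nfil3, a repressor, fell by 0.99 ± 0.07 and Bhlhe40 by 0.88 ± 0.06, while Tef, which competes with Nfil3 for its sites, rose by 0.90 ± 0.06. With DMSO, Bmal1 fell by 0.75, so the direction was shared, and the clock time of harvest is not in the labels.

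The other lists stayed nearer the shares of all genes. Calcium handling and channel genes had 10 of 28 raised and 8 lowered, receptors for adrenergic, peptide and neurohormone ligands 12 of 35 raised and 9 lowered, angiogenic and endothelin signal genes 7 of 38 raised and 14 lowered, and chromatin modifiers 6 of 30 raised and 10 lowered. Among genes of no list but among the largest differences from DMSO, Wfdc1, a secreted protease inhibitor family member, fell with JQ1 (-1.65 ± 0.05) and rose with DMSO (1.10). Glod5, also of no list, fell by 2.88 ± 0.09 with JQ1 to a dim level and rose by 0.50 with DMSO. Prl8a9, of the prolactin family, fell by 2.32 ± 0.17 to a dim level.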

How the data were processed

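RNA from 14 samples of neonatal rat ventricular myocytes was hybridised to an Affymetrix rat array with biotin-labelled cRNA, as the protocol labels say. The authors deposited log2 expression values, 1 per probe set and array; summarization and normalization are not given in the sources used here, and the submitters' processing notes name limma without a role or version. Of 20223 probe sets, 18510 had 1 gene symbol in the platform annotation, 305 had several and 1402 had none, and 6 controls were set aside; 18461 symbols were updated by gene ID and 1 by accession against RefSeq. The brightest probe set per symbol gave 13184 genes, 3797 of them from several probe sets.

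One limma model (lmFit and eBayes, limma 3.58.1 in R 4.3.3) with a mean per group was fitted to all 14 arrays, with contrasts 48 h minus 6 h within JQ1, the same within DMSO, and their difference, and Benjamini-Hochberg adjustment over all genes at 0.05. The number of arrays limits the precision.

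Arrays were assigned to groups by title; the comparison, its members and the gene lists were picked with earlier results of these data known. Named genes were the 12 largest rises and 12 largest falls without overlap of arrays, the 6 highest and 6 lowest differences from DMSO, up to 4 members of each described list in its main direction and 1 in the other, and a fixed panel of markers. Promoters (GRCr8, RefSeq) matched 158 of 200 named genes. Alternatives were quantile normalization, median centring, averaging of probe sets, dropping dim genes, trended and robust eBayes, a test against a minimum fold of 1.2, fitting only the arrays compared, a replicate block and leaving out each array.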

Additional observations from a re-analysis of the deposited data

Results flagged for a closer look

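The change at 48 h against 6 h differed between JQ1 and DMSO for 184 of the 200 named genes, by limma's test of the difference itself with Benjamini-Hochberg adjustment. Over all 13184 genes it differed for 5111 (20.4% higher and 18.3% lower). Most named genes were chosen for large or strongly called changes, so their count is largely set by that choice. Singled out here are the 28 that had the largest differences or were called in opposite directions, and 22 had opposite calls. Among all genes, 345 were raised with JQ1 and lowered with DMSO, and 348 the reverse. Raised with JQ1 and lowered with DMSO were G0s2 (2.09 with JQ1, -1.14 with DMSO, difference 3.225), Supt4h1 (0.42 with JQ1, -0.20 with DMSO, difference 0.6185), Tgfbi (0.62 with JQ1, -0.41 with DMSO, difference 1.026) and Tmem196 (1.84 with JQ1, -0.56 with DMSO, difference 2.396), on the log2 scale. Lowered with JQ1 and raised with DMSO were Acta1 (-0.26 with JQ1, 0.23 with DMSO, difference -0.491), Aspn (-4.07 with JQ1, 0.56 with DMSO, difference -4.634), C1s (-1.32 with JQ1, 0.17 with DMSO, difference -1.492), Cxcl16 (-1.24 with JQ1, 0.28 with DMSO, difference -1.524), Ect2 (-0.49 with JQ1, 1.59 with DMSO, difference -2.086) and Enah (-1.20 with JQ1, 0.41 with DMSO, difference -1.614). The same opposition held for Glod5 (-2.88 with JQ1, 0.50 with DMSO, difference -3.378), Hsd17b7 (-0.49 with JQ1, 0.24 with DMSO, difference -0.7294), Krt18 (-0.88 with JQ1, 0.47 with DMSO, difference -1.351), Myom2 (-2.80 with JQ1, 0.71 with DMSO, difference -3.503), Nppb (-0.74 with JQ1, 0.23 with DMSO, difference -0.9696) and Nuf2 (-0.50 with JQ1, 0.97 with DMSO, difference -1.465). It held too for Prc1 (-0.66 with JQ1, 1.28 with DMSO, difference -1.935), Rgs5 (-0.85 with JQ1, 0.32 with DMSO, difference -1.172), Serping1 (-1.69 with JQ1, 0.23 with DMSO, difference -1.926), Tk1 (-0.32 with JQ1, 0.59 with DMSO, difference -0.9146), Ube2c (-0.55 with JQ1, 1.04 with DMSO, difference -1.592) and Wfdc1 (-1.65 with JQ1, 1.10 with DMSO, difference -2.759). Differences among the 6 highest, without opposite calls, were those of Lrrc10 (4.05 with JQ1, 1.36 with DMSO, difference 2.686), Pik3ip1 (2.36 with JQ1, 0.15 with DMSO, difference 2.209), Ppargc1a (2.80 with JQ1, 0.29 with DMSO, difference 2.509) and Stc1 (2.40 with JQ1, -0.11 with DMSO, difference 2.516). Among the 6 lowest, without opposite calls, were Fndc1 (-2.89 with JQ1, -0.02 with DMSO, difference -2.871) and Prl8a9 (-2.32 with JQ1, 0.38 with DMSO, difference -2.698). The largest adjusted p among the genes with the highest or lowest differences was 0.000133 by limma. Aspn, Glod5 and Prl8a9 were dim at 48 h with JQ1, Ppargc1a at 6 h with JQ1 and Rgs5 at both times, so the sizes of their differences are uncertain.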

How the results depend on the processing

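The 8 counts of genes called stayed within 1.5 times their values under every alternative run, and the limits of the data lie in single genes. Leaving out 1 array at a time gave 3292 to 3642 genes raised and 3235 to 3537 lowered with JQ1, 153 to 165 and 350 to 379 at 2-fold, 1622 to 2143 raised and 1730 to 2406 lowered with DMSO, and 2281 to 2673 higher and 2135 to 2337 lower for the difference; where DMSO with PE at 6 h kept 1 array, that array was assumed to vary like the other groups. Same-numbered JQ1 arrays at 48 h and 6 h had deviations from their group means that correlated at 0.00738, 0.0639 and -0.0786, so the numbers were not taken as pairs; with the replicate number as a block, 3515 genes were raised, 3427 lowered, 2538 higher and 2327 lower. Of 37 list counts, 35 kept within 1.5 times, and without dim genes complement genes lowered came to 7 and Schwann and neural markers lowered to 3. Of 200 named genes, 193 kept the side of the threshold and the direction of their change with JQ1 under all alternatives, and 171 those of their difference from DMSO. On the mean of all probe sets, calls with JQ1 were lost for Atg5 (0.0913), Brd2 (-0.0956) and Fas (-0.109), and the difference turned sign for Atp2a2 (-0.00787), Hsph1 (0.00978), Sc5d (-0.0175), Myh6 (0.201) and Tpm2 (-0.381, called there, limma adjusted p = 0.000512). Repeated quantile normalization turned Myh6 to 0.0432. With 1 array left out, the uncalled differences of 6 genes took either sign: Arrdc4 (-0.0498 to 0.2045), Mcm2 (-0.0727 to 0.00619), Pola1 (-0.109 to 0.0153), Sc5d (-0.0103 to 0.0812), Tpm2 (-0.0143 to 0.0748) and Tyrobp (-0.0522 to 0.0528). The cause of these changes was not tested. Signals below log2 6.23 limit the sizes of changes into or out of dim groups.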
